A study of Mus musculus with 17 samples.

Results

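The measurements concern the change with genotype that lumbar dorsal root ganglia of mice show alike after a sham operation and after chronic constriction injury (CCI), in which loose ligatures are tied around the sciatic nerve. Bulk RNA sequencing was read for segments L4 to L6 of 4 groups: CCI with knockout of Kcnk1 (3 libraries, numbered 2, 3 and 4), CCI in wild type (5), sham with knockout (4) and sham in wild type (5). Kcnk1 encodes the potassium channel Twik1, and its knockout is the single allele that the labels name. All 17 of 17 libraries entered, with a mean per group. The quantity tested in each gene was the average of the log2 fold changes CCI KO over CCI WT and sham KO over sham WT, so that both treatments weigh the same. Every library is labelled day 30. The labels give neither the deleted part of Kcnk1 nor the strain, sex or age of the mice. They do not say that libraries come from separate animals or whether ganglia were pooled, so a p-value here covers the spread between libraries, which may be technical. KO and WT below name the libraries by their label.

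A dorsal root ganglion holds the cell bodies of sensory neurons, each wrapped by satellite glia, and the first stretch of their axons, which Schwann cells ensheathe. Myelinating Schwann cells wind their membrane around large axons; this membrane is rich in a few proteins (Pmp22 and Mbp among them) and in the galactolipids galactosylceramide and sulfatide. Schwann cells, vessels and fibroblasts also lay down matrix: a basement membrane of laminins, type IV collagen, nidogen and perlecan, and fibrillar collagens that are folded in the endoplasmic reticulum and cross-linked outside the cell. Twik1 belongs to the two-pore-domain potassium channels, which carry background potassium currents.

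The libraries held 52.5 to 73.6 M gene counts (M, mega): 55.8 to 70.4 in CCI KO, 52.5 to 65.7 in CCI WT, 52.8 to 59.4 in sham KO and 54.5 to 73.6 in sham WT. A level is the count of a gene per M counts of its scaled library (CPM). Neurons were well represented in every group: Prph, an intermediate filament of peripheral neurons, ranged over 1941 to 2076 CPM in CCI KO and 1856 to 1976 CPM in CCI WT libraries, and over 1826 to 2094 CPM in sham KO and 1747 to 2130.4 CPM in sham WT libraries. Kcnk1 (ENSMUSG00000033998, GRCm39 chromosome 8, 126721842 to 126757440) averaged 83.9 ± 5.36 CPM in CCI KO and 114 ± 6.83 CPM in CCI WT libraries, and 89.8 ± 18.01 CPM in sham KO and 127 ± 18.9 CPM in sham WT libraries (SD). The mean genotype effect, a log2 fold change given here and below with its standard error, was −0.47 ± 0.09 (edgeR adjusted p = 0.00746), −0.45 after CCI and −0.50 in sham. After CCI the KO libraries lay below all WT libraries, and in sham the groups overlapped: KO library 4 (114.5 CPM) lay above WT library 3 (94.3 CPM). Transcript of Kcnk1 was thus present in all KO libraries, and counts over all its exons cannot check a deleted part that is not given. Sham KO libraries 1 and 2 stand apart from the other sham libraries: the median shift of the 38 tested axon injury genes from the sham WT mean was 1.4 and 1.39 on the log2 scale, against 0.05 and −0.023 in sham KO libraries 3 and 4. Results are therefore also given without both. The name of each table includes a number, 1 for all 9 sham libraries and others for CCI KO and for CCI WT. If this number marks a batch, the genotype effect after CCI, and with it the CCI part of the mean effect, cannot be told apart from that batch, while the sham comparison holds 1 number.

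Across 23972 tested genes, 612 (2.55%) differed in the mean genotype effect by edgeR's quasi-likelihood test at a Benjamini-Hochberg adjusted p below 0.05: 447 (1.86%) were lower and 165 (0.688%) higher in KO. The fallers shifted more, with a median log2 fold change of −0.45 against 0.29 for the risers, and 48 genes fell by at least 1 on the log2 scale while 30 rose by as much or more. The median over all tested genes was −0.00067. The fallers had nearly the same median in both treatments, −0.46 after CCI and −0.43 in sham, and so did the risers, 0.29 and 0.27. All 612 had the same sign in both treatments, 488 with an unadjusted p below 0.05 in each, which the choice by the average in part brings about. Of the 612, 68 were called in each treatment on its own, 330 in neither, and 60 (9.80%) had an interaction p below 0.05, against 5.87% of all tested genes. Among the 71 genes named by the rule, 6 had an interaction p below 0.05, Col15a1, Ehd2, Sox10 and Cdkn1a with the larger effect after CCI and Ednrb and Plaur with the larger effect in sham. The interaction test called 0 genes (0.00%) in edgeR, with 1408 at an unadjusted p below 0.05, while DESeq2 called 21 and limma-voom 4. In 191 of the called genes, 167 lower and 24 higher, KO and WT libraries did not overlap in either treatment. Over all tested genes 205 (0.855%) were separated in this way in the same direction and 5 (0.0209%) in opposite directions.

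How many genes passed depended on single libraries. Without CCI KO library 3, 396 genes were called, and without sham KO library 4, 995 (419 higher and 576 lower). The number of risers alone was 301 without sham KO library 3, 105 without CCI KO library 4, and 104 and 103 without sham KO libraries 1 and 2. The number of fallers was 282 without CCI KO library 3. In all 17 fits with 1 library left out, 304 of the 612 (240 lower, 64 higher) kept their call. Without sham KO libraries 1 and 2 together, 404 were called (315 lower, 89 higher), of which 335 (272 lower, 63 higher) were among the 612, and 611 of 611 called genes that were still tested kept their sign.

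**Figure D1:**
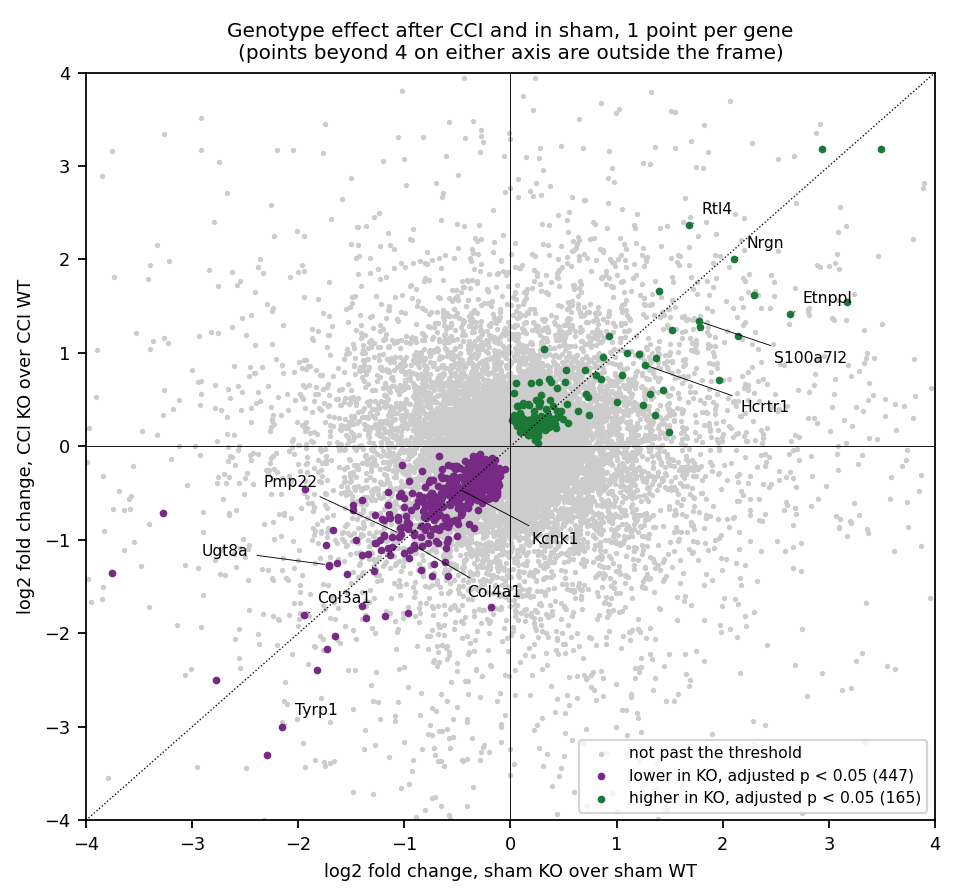
Genotype effect of each of 23972 genes in sham (horizontal, log2 fold change of sham KO over sham WT) and after CCI (vertical, log2 fold change of CCI KO over CCI WT). Purple points are the 447 genes lower and green points the 165 genes higher in KO in the mean of both effects. They lie in the lower left and upper right corners, along the dotted line of equal effects, which the choice by the average in part brings about. The grey points, the genes not chosen, show little relation.

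The treatments share no library, so a gene called in one can be looked up in the other. Each share of all genes given for such a look-up counts only genes that reached the level in the same direction. Of 178 genes (0.743% of those tested) called lower in sham, 172 were lower after CCI too. Of these, 141 (79.2% of the 178) reached an unadjusted p below 0.05 there, against 5.03% of all tested genes. Of 120 genes (0.501%) called lower after CCI, all 120 were lower in sham and 107 (89.2%) reached that level, against 5.94% of all genes. Of 62 genes (0.259%) called higher in sham, 44 were higher after CCI and 20 (32.3%) reached an unadjusted p below 0.05 (3.75% of all genes), and of 44 (0.184%) called higher after CCI, 34 were higher in sham and 12 (27.3%) reached it (5.50% of all genes). Each treatment was also fitted alone, so that not even the dispersion was shared. Then 61 of 64 genes called lower in sham (95.3%) reached that level after CCI, against 7.18% of all genes. In sham, 158 of 241 called lower after CCI (65.6%) reached it, against 4.91%. So did 4 of 4 genes called higher in sham (6.3% of all genes) and 47 of 163 called higher after CCI (4.37%). Without sham KO libraries 1 and 2, 29 of 32 genes called lower in sham did so, against 5.18% of all genes. Of those called lower after CCI, 118 of 148 did, against 4.22%. Among risers the counts were 3 of 5 called higher in sham (4.29% of all genes) and 14 of 74 called higher after CCI (3.19%). The difference between fallers and risers was not tested. Over all 23972 genes, which are not independent replicates, both effects had a Pearson correlation of 0.10, and of 0.32 over the 9817 genes at 10 CPM or more, given as a description.

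3 of the genes that fell in both treatments were taken from the groups described next: Pmp22 from myelin proteins, Gal3st1 from myelin lipids and Kdelr3 from collagen maturation genes. The collagen maturation list was added after the values had been seen. The 300 bases before the first base of their GENCODE canonical transcript follow, 5′ to 3′ on GRCm39 (Pmp22 chr11:63021317-63021616, plus strand; Gal3st1 chr11:3933316-3933615, plus strand; Kdelr3 chr15:79400297-79400596, plus strand). Capitals mark matches to the motifs searched on both strands.
Pmp22 promoter: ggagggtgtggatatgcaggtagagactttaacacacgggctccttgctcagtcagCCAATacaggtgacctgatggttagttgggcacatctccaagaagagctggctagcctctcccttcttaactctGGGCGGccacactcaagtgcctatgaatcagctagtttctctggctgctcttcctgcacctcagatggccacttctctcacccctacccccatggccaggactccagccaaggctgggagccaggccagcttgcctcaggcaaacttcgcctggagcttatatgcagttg
Gal3st1 promoter: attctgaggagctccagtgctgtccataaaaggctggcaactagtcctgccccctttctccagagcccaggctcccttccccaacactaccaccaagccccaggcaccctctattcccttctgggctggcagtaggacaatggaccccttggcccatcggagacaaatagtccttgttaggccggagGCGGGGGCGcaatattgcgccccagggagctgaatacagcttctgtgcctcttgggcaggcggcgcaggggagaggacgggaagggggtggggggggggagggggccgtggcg
Kdelr3 promoter: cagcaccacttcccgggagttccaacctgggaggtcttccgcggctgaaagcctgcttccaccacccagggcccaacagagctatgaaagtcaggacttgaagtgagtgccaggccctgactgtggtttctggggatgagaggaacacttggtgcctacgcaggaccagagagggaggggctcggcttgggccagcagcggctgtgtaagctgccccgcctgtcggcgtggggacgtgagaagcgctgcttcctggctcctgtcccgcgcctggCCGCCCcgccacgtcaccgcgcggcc
Pmp22 holds 1 CCAAT box (CCAAT) and 1 GC box (GGGCGG), Gal3st1 holds 1 match to GCGNGGGCG, the motif of the EGR family, to which the myelin regulator Egr2 belongs, and Kdelr3 holds 1 GC box, read on the opposite strand. None of the 3 holds a TATA box (TATAAA) or the endoplasmic reticulum stress element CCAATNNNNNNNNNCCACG. Such matches set the called genes little apart: a CCAAT box lay in this window of 39.4% of 424 lower, 37.1% of 151 higher and 39.5% of all 16063 tested protein-coding genes, a GC box in 49.1, 52.3 and 46.9%, a TATA box in 10.8, 11.9 and 9.93%, and the EGR motif in 7.31, 6.62 and 6.01%. The stress element lay in 0, 0 and 0.112%.

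Most peripheral myelin genes fell. Of 27 tested, 20 were lower and 7 did not pass (of all tested genes 1.86% were lower), 26 had a negative sign, and the median log2 fold change was −0.52, −0.54 after CCI and −0.58 in sham, against −0.00067 over all tested genes. In 16 of them KO and WT libraries did not overlap in either treatment. Pmp22 (ENSMUSG00000018217, GRCm39 chromosome 11, 63019718 to 63050600) encodes a membrane protein of compact myelin. Pmp22 stood at 3417, 2949 and 3026 CPM in the 3 CCI KO libraries, against 6482, 5372, 5638, 5213 and 7278 CPM in the 5 CCI WT libraries. Pmp22 in sham stood at 2531, 2849, 3287 and 2982 CPM in the 4 KO libraries, against 6110.5, 5072, 5913, 5549 and 7111 CPM in the 5 WT libraries. Every KO library thus lay below every WT library of its treatment, and the mean effect was −0.98 ± 0.09 (edgeR adjusted p = 2.14e-05), −0.94 after CCI and −1.03 in sham.

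Genes for proteins of other parts of the myelin sheath fell too. Gjb1, the connexin of the channels that link successive turns of the sheath, changed by −0.89 ± 0.10 (edgeR adjusted p = 5.8e-06), with levels of 14.6 ± 0.481 CPM in CCI KO and 25.4 ± 3.66 CPM in CCI WT libraries, and 10.9 ± 1.87 CPM in sham KO and 21.5 ± 3.21 CPM in sham WT libraries (SD). Cnp, an enzyme of the cytoplasmic channels of myelin, changed by −0.48 ± 0.05 (edgeR adjusted p = 1.8e-06), and Mag, the adhesion protein that faces the axon, by −0.76 ± 0.10 (edgeR adjusted p = 0.000146). Called as well were the myelin basic protein gene Mbp (−0.71), periaxin (Prx, −0.62), which links the sheath to the surrounding basement membrane, and Cldn19 (−0.59), a tight junction claudin of the sheath. Members not past the threshold were Pmp2 (−1.19 ± 0.46, edgeR adjusted p = 0.223), a fatty acid carrier of myelin, Egr2 (−0.37 ± 0.15, edgeR adjusted p = 0.255), the transcription factor that drives myelin genes, and Mpzl2, Fgd4, Nfasc, Mtmr2 and Gdap1, at −0.36 to 0.05. The effect of Egr2 was −0.02 after CCI and −0.73 in sham. In sham its KO libraries (12.4 to 27.8 CPM) lay below its WT libraries (28.1 to 40.9 CPM). The summed level of the list ranged over 8068 to 9807 CPM in CCI KO and 13797 to 18341 CPM in CCI WT libraries, and 6441 to 8474 CPM in sham KO and 12415 to 17339 CPM in sham WT libraries, with no overlap in either treatment. Without sham KO libraries 1 and 2, 18 were lower with a median of −0.47. In bulk tissue, fewer myelinating cells and less RNA per cell cannot be told apart.

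**Figure D2:**
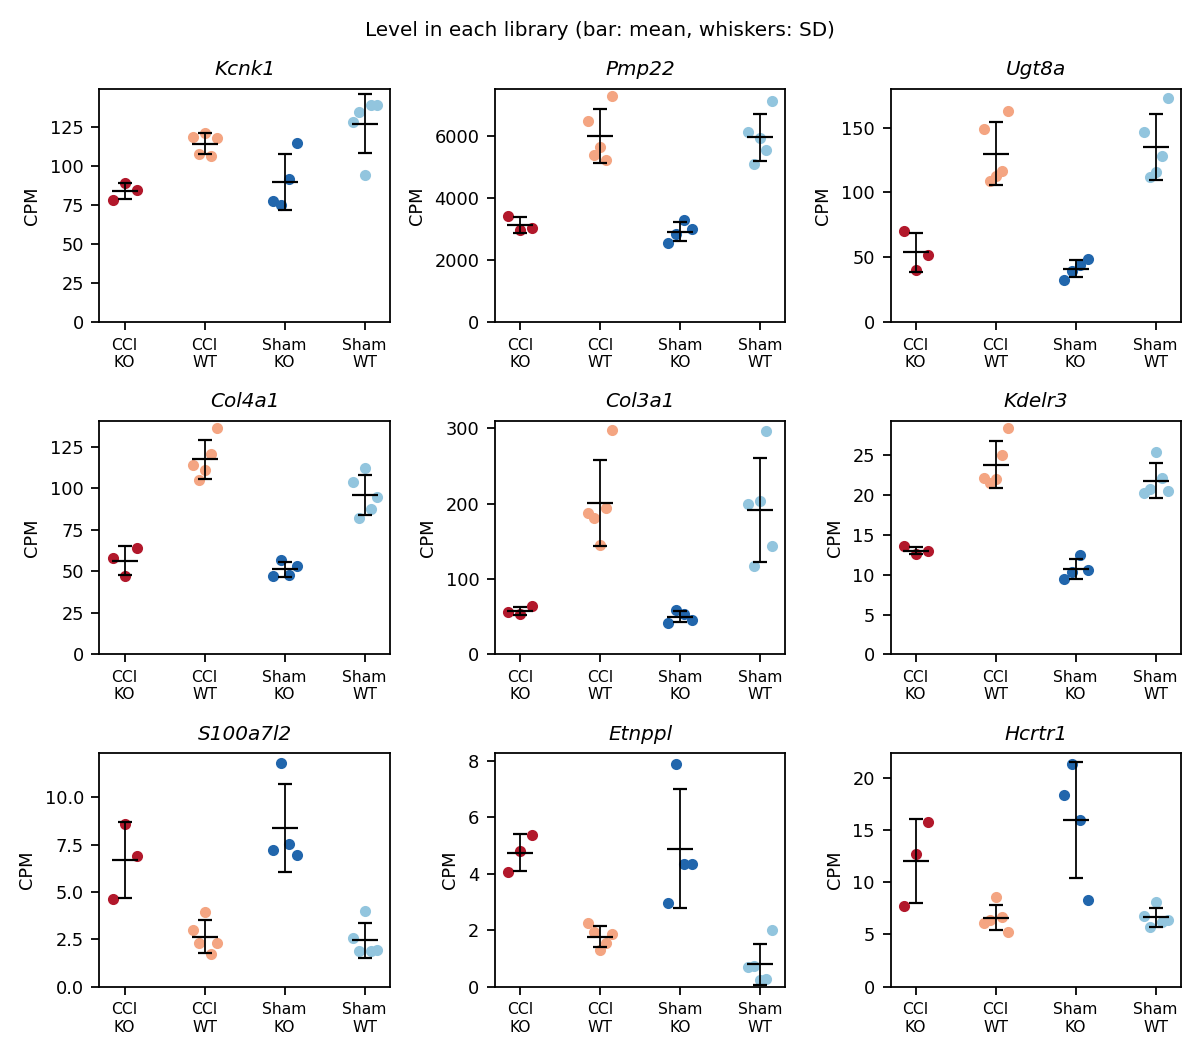
Level of 9 genes in each library (CPM, linear axis from 0), with the groups CCI KO, CCI WT, sham KO and sham WT from left to right; points are libraries, bars the mean and whiskers the SD. Pmp22, Ugt8a, Col4a1, Col3a1 and Kdelr3 lie lower in all 7 KO libraries than in the WT libraries of the same treatment, S100a7l2 and Etnppl lie higher in all 7, and Kcnk1 and Hcrtr1 overlap in 1 treatment each.

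Genes for enzymes of myelin galactolipids also fell. Of those described next, Ugt8a and Fa2h are also members of the myelin list above and are counted in both lists. Ugt8a (ENSMUSG00000032854, GRCm39 chromosome 3, 125654459 to 125732736) makes galactosylceramide from ceramide. Ugt8a stood at 70.0, 40.2 and 51.7 CPM in the 3 CCI KO libraries, against 149, 109, 113, 117 and 163 CPM in the 5 CCI WT libraries. Ugt8a in sham stood at 32.8, 39.6, 44.2 and 48.4 CPM in the 4 KO libraries, against 146, 112, 116, 128 and 173 CPM in the 5 WT libraries. The groups did not overlap in either treatment, and the mean effect was −1.49 ± 0.15 (edgeR adjusted p = 7.3e-05), −1.27 after CCI and −1.71 in sham. Fa2h, which hydroxylates the fatty acid of these lipids, changed by −1.25 ± 0.11 (edgeR adjusted p = 2.14e-05), and Gal3st1, which adds the sulfate that turns galactosylceramide into sulfatide, by −0.63 ± 0.06 (edgeR adjusted p = 1.8e-06). Elovl1 (−0.55 ± 0.05, edgeR adjusted p = 1.4e-06) and Cers2 (−0.39 ± 0.05, edgeR adjusted p = 7.86e-05) lengthen fatty acids to very long chains and join those chains to the sphingoid base. Enzymes that make the fatty acids and the sphingoid base themselves were not past the threshold: Fasn stood at −0.0025 ± 0.043, Acaca at −0.031 ± 0.05 and Sptlc1 at −0.13 ± 0.06. Of the 28 tested genes of fatty acid and sphingolipid synthesis, 9 were lower and 19 did not pass, with a list median of −0.07; without sham KO libraries 1 and 2, 7 were lower. Of 25 cholesterol synthesis genes, 4 were lower and 21 did not pass (6 were lower without sham KO libraries 1 and 2). The falls were small, among them that of Lss, lanosterol synthase (−0.21 ± 0.05, edgeR adjusted p = 0.0169), with a list median of −0.05. The call of Lss was lost without either of CCI KO 3 and 4, and those of Lss and Hmgcs1, the synthase of an early step (−0.15 ± 0.036, edgeR adjusted p = 0.0221), were lost without sham KO libraries 1 and 2.

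Matrix genes gave the lowest list median, −0.73 over the 41 tested fibroblast and matrix genes, of which 22 were lower and 19 did not pass, and 40 had a negative sign. Both chains of the common type IV collagen of basement membranes had the smallest p among them. Col4a1 (ENSMUSG00000031502, GRCm39 chromosome 8, 11248423 to 11362826) encodes one of them. Col4a1 stood at 57.8, 47.1 and 64.1 CPM in the 3 CCI KO libraries, against 114, 105, 111, 120.4 and 136 CPM in the 5 CCI WT libraries. Col4a1 in sham stood at 47.2, 56.9, 47.7 and 53.0 CPM in the 4 KO libraries, against 103, 82.3, 112, 87.4 and 94.7 CPM in the 5 WT libraries. The mean effect was −0.98 ± 0.08 (edgeR adjusted p = 3.45e-07), with no overlap in either treatment. Col4a2, which lies head to head with Col4a1, changed by −0.91 ± 0.09 (edgeR adjusted p = 9.52e-06). Their canonical transcripts overlap by 318 bases at the first exons, and the library kit keeps no strand, so reads from this stretch cannot be assigned to either gene. Col3a1 (ENSMUSG00000026043, GRCm39 chromosome 1, 45350698 to 45395840), a fibrillar collagen of connective tissue, had the largest fall of the matrix genes. Col3a1 stood at 55.7, 53.6 and 64.0 CPM in the 3 CCI KO libraries, against 188, 181, 145, 194 and 297 CPM in the 5 CCI WT libraries. Col3a1 in sham stood at 42.3, 58.6, 53.0 and 46.3 CPM in the 4 KO libraries, against 200.04, 117, 203, 297 and 144 CPM in the 5 WT libraries. The mean effect was −1.87 ± 0.20 (edgeR adjusted p = 0.000155), −1.80 after CCI and −1.94 in sham. Lox, which cross-links collagen and elastin, changed by −1.31 ± 0.17 (edgeR adjusted p = 0.000301), and Col15a1, a collagen beside basement membranes, by −0.81 ± 0.09 (edgeR adjusted p = 1.69e-05). Col1a1, the main chain of type I collagen, was not past the threshold (−1.14 ± 0.44, edgeR adjusted p = 0.254); it ranged over 53.8 to 62.4 CPM in CCI KO and 141 to 297 CPM in CCI WT libraries, and over 34.7 to 368 CPM in sham KO and 121.7 to 272 CPM in sham WT libraries. Without sham KO libraries 1 and 2, 19 matrix genes were lower, with a median of −0.74.

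3 lists were added after the values had been seen and describe the matrix further. The basement membrane list shares members with the fibroblast and matrix list, among them Col4a1, Col4a2 and Col15a1, so their counts are not separate results. Of 29 basement membrane genes, 16 were lower and 13 did not pass (median −0.52). Those lower included the laminin chains Lamb1 (−0.55 ± 0.07, edgeR adjusted p = 2.58e-05), Lamc1 (−0.55), Lama2 (−0.60), Lama4 (−0.46) and Lama5 (−0.65), the nidogens Nid1 (−0.82) and Nid2 (−0.75), perlecan (Hspg2, −0.55) and the laminin receptor dystroglycan (Dag1, −0.49 ± 0.05, edgeR adjusted p = 6.48e-06). Of 35 genes of collagen maturation and cross-linking, 13 were lower and 22 did not pass (median −0.27). Kdelr3 (ENSMUSG00000010830, GRCm39 chromosome 15, 79400596 to 79411940), a receptor that returns proteins to the endoplasmic reticulum, had the smallest p of all tested genes. Kdelr3 stood at 13.6, 12.6 and 13.0 CPM in the 3 CCI KO libraries, against 22.1, 21.6, 22.1, 25.1 and 28.4 CPM in the 5 CCI WT libraries. Kdelr3 in sham stood at 9.45, 10.3, 12.5 and 10.6 CPM in the 4 KO libraries, against 20.3, 20.7, 25.5, 22.1 and 20.5 CPM in the 5 WT libraries. The mean effect was −0.95 ± 0.08 (edgeR adjusted p = 2.54e-07), and the groups did not overlap. Exons of Kdelr3 overlap those of Ddx17 on the opposite strand. The closely related Kdelr1 (−0.15) and Kdelr2 (−0.09) were not past the threshold. The collagen chaperone Serpinh1 changed by −0.95 ± 0.11 (edgeR adjusted p = 0.000288), the prolyl isomerase Ppic by −1.09 ± 0.16 (edgeR adjusted p = 0.000227) and the lysyl hydroxylase Plod1 by −0.44 ± 0.07 (edgeR adjusted p = 0.000228), whereas the prolyl hydroxylase subunits P4ha1 (−0.19) and P4hb (−0.035) were not past the threshold. Of 12 caveola genes, 5 were lower and 7 did not pass, and those lower included Cav1 (−0.53 ± 0.09, edgeR adjusted p = 0.00272), the main coat protein of these membrane pits, and Cavin3 (−0.45 ± 0.06, edgeR adjusted p = 6.47e-05). Without sham KO libraries 1 and 2, 15 basement membrane, 10 collagen maturation and 4 caveola genes were lower.

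**Figure D3:**
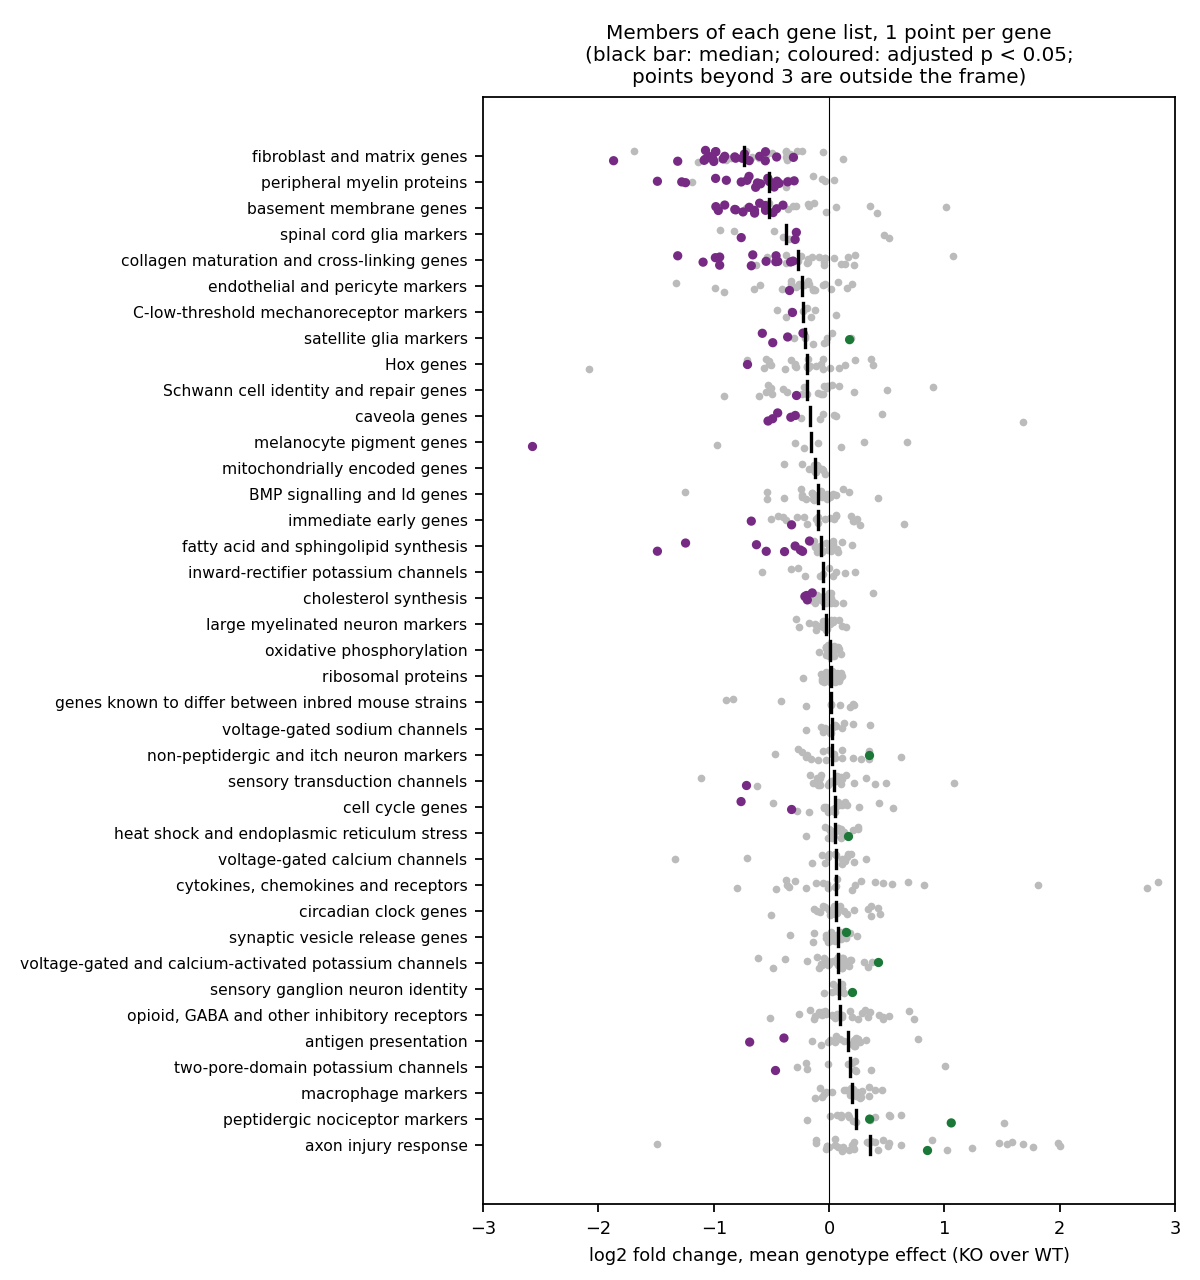
Mean genotype effect (log2 fold change, KO over WT) of the tested members of 39 gene lists, ordered by their median, which the black bar marks. Purple points are members called lower and green points members called higher; most purple points lie in the fibroblast and matrix, peripheral myelin, basement membrane, and collagen maturation lists. A gene that belongs to several lists is drawn in each of them.

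Several myelin genes above, Pmp22, Mbp, Prx and Mag, also mark myelinating Schwann cells. Apart from these, markers that name the cells mostly had smaller differences, and most were not past the threshold. Sox10, the transcription factor of Schwann cells and satellite glia, changed by −0.28 ± 0.05 (edgeR adjusted p = 0.00168), −0.41 after CCI and −0.16 in sham, and it was the single called member of 25 Schwann cell identity and repair genes (median −0.19). Erbb3, the neuregulin receptor of Schwann cells, stood at −0.23 ± 0.09 (edgeR adjusted p = 0.213), and the summed level of this list ranged over 1849 to 2002 CPM in CCI KO and 1858 to 2037 CPM in CCI WT libraries, and 1664 to 2157 CPM in sham KO and 1696 to 1938 CPM in sham WT libraries. Ngfr, the neurotrophin receptor that non-myelinating and repair Schwann cells carry, stood at 0.50 ± 0.13 (edgeR adjusted p = 0.0578), not past the threshold. Of the genes that fibroblasts express, Pdgfra (−0.28 ± 0.18, edgeR adjusted p = 0.571), Dcn (−0.23 ± 0.17, edgeR adjusted p = 0.654) and Lum (−0.34 ± 0.14, edgeR adjusted p = 0.292) had a negative sign and were not past it either. In the whole fibroblast and matrix list, 22 of 41 tested genes were lower. Whether the share of fibroblasts changed was not tested. Of 24 endothelial and pericyte markers 1, the sialomucin Emcn, was lower (−0.35 ± 0.08, edgeR adjusted p = 0.0137). Its call was lost without CCI KO library 2 or 3 and without sham KO libraries 1 and 2. Of the 24, 20 had a negative sign (list median −0.24) and 9 an unadjusted edgeR p below 0.05. Of genes more than 10 Mb from Kcnk1, 13.3% had such a p. Of 15 satellite glia markers 4 were lower, among them Sostdc1 (−0.58 ± 0.07, edgeR adjusted p = 2.88e-05), the endothelin receptor Ednrb (−0.49 ± 0.07, edgeR adjusted p = 0.000192) and Apoe (−0.23 ± 0.037, edgeR adjusted p = 0.00054). Ptprz1, a receptor phosphatase, was higher (0.18 ± 0.043, edgeR adjusted p = 0.0214), with a log2 fold change of 0.30 after CCI and 0.05 in sham. It ranged over 57.3 to 62.7 CPM in CCI KO and 46.3 to 51.4 CPM in CCI WT libraries, and over 45.3 to 48.2 CPM in sham KO and 44.0 to 47.4 CPM in sham WT libraries, so that the groups overlapped in sham. The list median was −0.21, 12 of 15 had a negative sign and 11 an unadjusted edgeR p below 0.05. Over all tested genes 1.86% were called lower. The summed level of the satellite glia list ranged over 5751 to 6023 CPM in CCI KO and 6686 to 6915 CPM in CCI WT libraries. In sham it ranged over 4586 to 5529 CPM in KO and 5683 to 6204 CPM in WT libraries, so the sums overlapped in neither treatment. Without sham KO libraries 1 and 2, 5 satellite glia markers were lower and 1 higher.

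**Figure D4:**
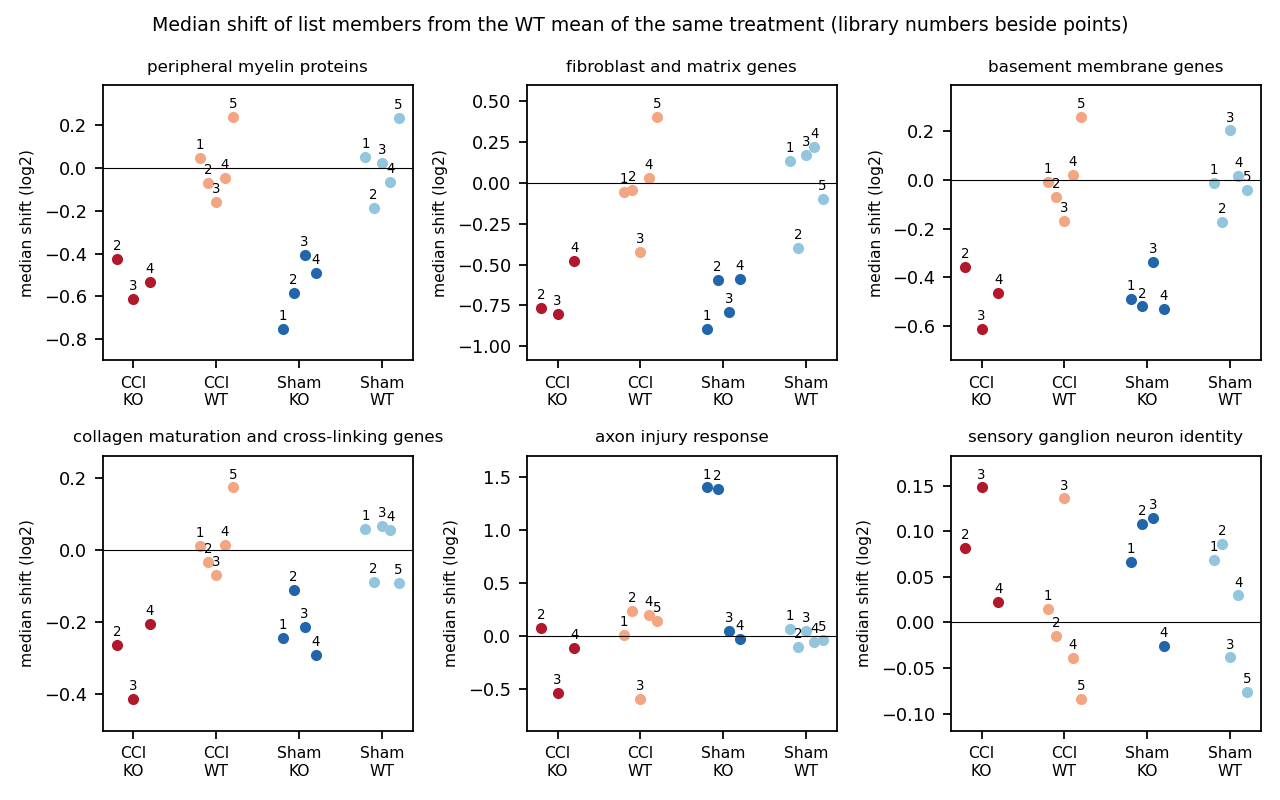
Median shift of the members of 6 gene lists in each library, as log2 CPM minus the WT mean of the same treatment, with library numbers beside the points. Myelin shifts were −0.75 to −0.41 and matrix shifts −0.89 to −0.48 in the 7 KO libraries, while the axon injury list is raised in sham KO libraries 1 and 2 and not in 3 and 4.

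The other large falls had no single theme among the lists. Tyrp1 (ENSMUSG00000005994, GRCm39 chromosome 4, 80752360 to 80769956), best known as an enzyme of pigment cells, had the largest fall of the genes named. Tyrp1 stood at 1.002, 3.61 and 1.33 CPM in the 3 CCI KO libraries, against 17.3, 13.9, 15.4, 16.0 and 15.9 CPM in the 5 CCI WT libraries. Tyrp1 in sham stood at 4.98, 5.82, 3.50 and 2.003 CPM in the 4 KO libraries, against 14.99, 14.3, 22.6, 19.7 and 19.1 CPM in the 5 WT libraries. The groups did not overlap, and the mean effect was −2.58 ± 0.27 (edgeR adjusted p = 8.51e-05). The defining pigment genes Tyr, Dct and Mlana were too low to be tested, and no other of the 8 tested pigment genes was called. Myrfl, a homologue of the myelin regulator Myrf, changed by −1.60 ± 0.23 (edgeR adjusted p = 0.000124), Col26a1, a short collagen, by −1.50 ± 0.20 (edgeR adjusted p = 5.11e-05), and the secreted protein C1qtnf6 by −1.44 ± 0.25 (edgeR adjusted p = 0.00186). Cphx1, a homeobox gene, stood near 1 CPM in WT libraries and below it in KO libraries, 0.388 ± 0.119 CPM in CCI KO and 1.28 ± 0.195 CPM in CCI WT libraries, and 0.404 ± 0.151 CPM in sham KO and 1.07 ± 0.158 CPM in sham WT libraries (SD), a change of −1.56 ± 0.27 (edgeR adjusted p = 0.00104). Clec3b, the gene of tetranectin, changed by −1.39 ± 0.25 (edgeR adjusted p = 0.00193). Omd, a proteoglycan of connective tissue, changed by −1.37 ± 0.35 (edgeR adjusted p = 0.0345). The Omd call was lost in 13 of 17 fits with 1 library left out (without any one of CCI KO 2, 3 and 4, CCI WT 1, 2, 4 and 5, sham KO 1 and 3, or sham WT 1, 3, 4 and 5) and without sham KO libraries 1 and 2 (−1.55, edgeR adjusted p = 0.0723). Emp2, a membrane protein related to Pmp22, had a smaller mean effect (−0.56 ± 0.06, edgeR adjusted p = 5.32e-06) and lay lower in every KO library than in the WT libraries of its treatment. Hoxb5 was the single called gene of 29 tested Hox genes (−0.72 ± 0.10, edgeR adjusted p = 0.00016), and its exons overlap an antisense transcript. Of all tested genes 2.55% were called. Among the 29, 23 had a negative sign (list median −0.20) and 11 an unadjusted edgeR p below 0.05, while DESeq2 called 1 and limma-voom 4.

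Risers were fewer, and the largest rises were of genes at low level. S100a7l2 (ENSMUSG00000091175, GRCm39 chromosome 3, 90995443 to 91014760), a calcium-binding protein of the S100 family, had the smallest p among the largest rises. S100a7l2 stood at 4.62, 8.61 and 6.89 CPM in the 3 CCI KO libraries, against 2.97, 2.30, 3.95, 1.72 and 2.30 CPM in the 5 CCI WT libraries. S100a7l2 in sham stood at 7.22, 11.8, 7.56 and 6.95 CPM in the 4 KO libraries, against 2.58, 1.88, 3.99, 1.87 and 1.91 CPM in the 5 WT libraries. The groups did not overlap in either treatment, and the mean effect was 1.56 ± 0.19 (edgeR adjusted p = 2.88e-05). Etnppl (ENSMUSG00000019232, GRCm39 chromosome 3, 130411097 to 130431441), an enzyme that breaks down phosphoethanolamine, followed the same pattern. Etnppl stood at 4.06, 4.80 and 5.36 CPM in the 3 CCI KO libraries, against 2.25, 1.92, 1.29, 1.54 and 1.86 CPM in the 5 CCI WT libraries. Etnppl in sham stood at 2.96, 7.88, 4.34 and 4.34 CPM in the 4 KO libraries, against 0.713, 0.715, 0.236, 0.259 and 2.01 CPM in the 5 WT libraries. The effect was 2.03 ± 0.34 (edgeR adjusted p = 0.00231), 1.42 after CCI and 2.63 in sham. Hcrtr1 (ENSMUSG00000028778, GRCm39 chromosome 4, 130024004 to 130033557) encodes an orexin receptor. Hcrtr1 stood at 7.74, 12.7 and 15.8 CPM in the 3 CCI KO libraries, against 6.14, 6.40, 8.56, 6.65 and 5.26 CPM in the 5 CCI WT libraries. Hcrtr1 in sham stood at 18.4, 21.3, 16.0 and 8.31 CPM in the 4 KO libraries, against 6.75, 5.71, 8.09, 6.24 and 6.38 CPM in the 5 WT libraries. Its groups overlapped after CCI and not in sham, and the effect was 1.07 ± 0.17 (edgeR adjusted p = 0.000887). Rtl4, a gene derived from a retrotransposon, changed by 2.02 ± 0.28 (edgeR adjusted p = 9.18e-05), the major histocompatibility gene H2-M11 by 1.54 ± 0.25 (edgeR adjusted p = 0.000719), and Prom2, a membrane protrusion protein, by 1.38 ± 0.28 (edgeR adjusted p = 0.0053). H2-M11 and S100a7l2 belong to families with close copies, between which reads may be split. Pla2g2d, a secreted phospholipase, changed by 1.02 ± 0.21 (edgeR adjusted p = 0.0064).

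Several of the rises rested on a few libraries. Nrgn, a calmodulin-binding protein of neurons, changed by 2.05 ± 0.43 (edgeR adjusted p = 0.011), and by 1.995 (edgeR adjusted p = 0.0556) without sham KO libraries 1 and 2, which ends the call. Nrgn averaged 1.88 ± 0.948 CPM in CCI KO and 0.470 ± 0.166 CPM in CCI WT libraries, and 3.03 ± 2.07 CPM in sham KO and 0.703 ± 0.457 CPM in sham WT libraries (SD). Glyat, a glycine acyltransferase, changed by 1.34 ± 0.32 (edgeR adjusted p = 0.0288), and by 0.61 (edgeR adjusted p = 0.309) without them. The Glyat call was lost in 10 of 17 fits with 1 library left out (without any one of CCI KO 2, 3 and 4, CCI WT 2, 4 and 5, sham KO 1 and 2, or sham WT 3 and 4). Wfdc3, a protease inhibitor of the whey acidic protein family, changed by 1.96 ± 0.45 (edgeR adjusted p = 0.0309), and by 0.85 (edgeR adjusted p = 0.103) without them. Its call was lost in 12 of 17 such fits (without any one of CCI KO 2, 3 and 4, CCI WT 1, 2, 4 and 5, sham KO 2, or sham WT 1, 2, 3 and 5). Asb5, an ankyrin repeat protein, changed by 1.16 ± 0.28 (edgeR adjusted p = 0.0224); its call was lost without CCI KO library 3 or sham KO library 3, and its exons overlap those of Spcs3 on the opposite strand. Smr2, a secreted prohormone-like peptide gene, changed by 1.06 ± 0.20 (edgeR adjusted p = 0.00766), and by 0.70 (edgeR adjusted p = 0.00835) without sham KO libraries 1 and 2, which keeps the call at a size more than 1.5 times smaller.

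The genes of neuronal excitability were read against the 2.55% called over all tested genes, and nothing is read from a count near that share. Among two-pore-domain potassium channels, Kcnk1 was the single called gene of 12 tested. Kcnc4, a channel of the Kv3 type, rose by 0.43 ± 0.08 (edgeR adjusted p = 0.00505), the single called gene of 38 voltage-gated and calcium-activated potassium channels. edgeR called 0 of 11 inward rectifiers, 0 of 14 voltage-gated sodium channels, 0 of 17 voltage-gated calcium channels and 0 of 30 opioid, GABA and other inhibitory receptors. Where edgeR called 0 genes of a list, 3 counts are given: the genes at an unadjusted edgeR p below 0.05, those called by DESeq2 and those called by limma-voom. These were 3, 0 and 0 for inward rectifiers, 3, 0 and 0 for sodium channels, 5, 1 and 1 for calcium channels and 7, 3 and 3 for inhibitory receptors. Of 30 sensory transduction channels, the ATP-gated P2rx7, which glia and immune cells also carry, was lower (−0.72 ± 0.13, edgeR adjusted p = 0.00229). Among neuron markers, Cpne4 (0.35 ± 0.07, edgeR adjusted p = 0.00702) and Smr2 were the 2 called of 17 peptidergic nociceptor genes. All but 1 of the 17 had a positive sign, and the 3 counts were 9, 6 and 5. The list median was 0.23, 0.33 after CCI and 0.21 in sham, and 0.17 over both without sham KO libraries 1 and 2. The itch receptor Mrgpra3 (0.34 ± 0.09, edgeR adjusted p = 0.0248) was the single called one of 21 non-peptidergic and itch genes, and the zinc finger factor Zfp521 (−0.33 ± 0.07, edgeR adjusted p = 0.0122) of 9 genes of low-threshold C fibres. Drgx (0.19 ± 0.05, edgeR adjusted p = 0.0379), a transcription factor of these ganglia, was the single one of 12 neuron identity genes, and Napb (0.15 ± 0.036, edgeR adjusted p = 0.0214), a vesicle fusion factor, of 30 synaptic release genes. Calls were lost without any one of CCI KO 3 and 4 or sham KO 1 and 2 for Mrgpra3, CCI KO 2 for Zfp521, CCI KO 3 and 4, CCI WT 1, 2, 4 and 5, sham KO 1, 2 and 3, or sham WT 5 for Drgx and CCI KO 2 and 4 or sham KO 1 for Napb, and for all 4 without sham KO libraries 1 and 2. Of 19 markers of large myelinated neurons 0 were called by edgeR (the 3 counts were 3, 1 and 1), with a list median of −0.026.

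Injury and immune genes were read against the same 2.55%. Of 38 tested axon injury genes 1 was called, the urokinase receptor Plaur (0.84 ± 0.17, edgeR adjusted p = 0.0125). It stood at 0.50 (edgeR adjusted p = 0.00759) without sham KO libraries 1 and 2. The list median was −0.17 after CCI and 0.85 in sham, and −0.07 over both without those libraries. edgeR called 0 of 22 macrophage markers, 0 of 28 interferon genes, 0 of 25 cytokine and receptor genes and 0 of 26 neutrophil and lymphocyte markers. The 3 counts were 1, 0 and 0 for macrophage, 0, 0 and 0 for interferon, 6, 3 and 4 for cytokine and 5, 0 and 0 for neutrophil and lymphocyte genes. Of 22 antigen presentation genes, H2-DMa (−0.39 ± 0.09, edgeR adjusted p = 0.0234) and H2-DMb1 (−0.69 ± 0.17, edgeR adjusted p = 0.0414), which load peptides onto class II molecules, were lower. These calls were lost in 7 and 12 of 17 fits with 1 library left out (H2-DMa without any one of CCI KO 2 and 3, CCI WT 1, sham KO 1 and 2, or sham WT 1 and 5; H2-DMb1 without any one of CCI KO 2, 3 and 4, CCI WT 1, 3, 4 and 5, sham KO 2, or sham WT 1, 2, 3 and 5) and without sham KO libraries 1 and 2. The early response factors Nr4a1 (−0.33 ± 0.06, edgeR adjusted p = 0.0038) and Egr3 (−0.67 ± 0.18, edgeR adjusted p = 0.0354) were the 2 called of 23 immediate early genes. The Egr3 call was lost without any one of CCI KO 2 and 3, CCI WT 1, 3, 4 and 5, sham KO 2 and 3, or sham WT 2 and 3. The cyclin Ccnd2 (−0.76 ± 0.15, edgeR adjusted p = 0.00729) and the cell cycle inhibitor Cdkn1a (−0.33 ± 0.07, edgeR adjusted p = 0.0181) were the 2 called of 23 cell cycle genes. The Ccnd2 call was lost without sham KO libraries 1 and 2 and that of Cdkn1a without CCI KO library 3 or 4. Asns, an amino acid stress gene (0.17 ± 0.045, edgeR adjusted p = 0.0413), was the single called of 24 heat shock and endoplasmic reticulum stress genes. It stood at 0.09 (edgeR adjusted p = 0.338) without sham KO libraries 1 and 2, and its call was lost without any one of CCI KO 2 and 3, CCI WT 1 and 5, sham KO 1 and 2, or sham WT 5. edgeR called 0 genes in the lists of clock (22 genes), BMP and Id (26), oxidative phosphorylation (29), mitochondrially encoded (13) and ribosomal protein genes (34). The 3 counts were 7, 0 and 0 for clock, 4, 1 and 1 for BMP and Id, 2, 0 and 0 for oxidative phosphorylation, 3, 0 and 0 for mitochondrially encoded and 0, 0 and 0 for ribosomal protein genes.

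Tissue that could be carried along in the dissection also varied between libraries. The summed level of 11 skeletal muscle markers was 206 to 354 CPM in CCI KO and 9.87 to 134 CPM in CCI WT libraries, and 6.74 to 1344 CPM in sham KO and 3.50 to 281 CPM in sham WT libraries. All 11 had a positive mean effect (median 1.77), and 0 were called by edgeR (the 3 counts as above were 0, 0 and 0); the defining markers Acta1 and Ckm were above 0 in all libraries. Red blood cell markers summed to 209.9 to 803 CPM in CCI KO and 140.1 to 409.7 CPM in CCI WT libraries, and 99.8 to 1839 CPM in sham KO and 135 to 637 CPM in sham WT libraries (0 of 6 called by edgeR, 3 counts 0, 0 and 0). Markers of spinal cord glia summed to 188 to 229 CPM in CCI KO and 235 to 289 CPM in CCI WT libraries, and 171 to 215 CPM in sham KO and 198 to 346 CPM in sham WT libraries. 3 of 10 were called lower (Mag, Sox10 and Aspa), and 2 without sham KO libraries 1 and 2. Schwann cells also express Mag and Sox10, while the oligodendrocyte gene Opalin was too low to be tested. The marker Mobp, not called, ranged over 3.04 to 4.34 CPM in CCI KO and 1.39 to 6.47 CPM in CCI WT libraries. In sham it ranged over 0.876 to 14.6 CPM in KO and 1.38 to 66.4 CPM in WT libraries. Mog, not called either, reached 2.83 CPM in sham WT libraries and at most 0.298 CPM in the other groups. Adipocyte (8 tested) and bone and cartilage markers (10 tested) had 0 called by edgeR, with 3 counts of 0, 0 and 0 and of 1, 0 and 0. Muscle markers had positive and most myelin and matrix genes negative mean effects, and the part of carried tissue in these results was not tested. Of 10 genes known to differ between inbred mouse strains 0 were called by edgeR (3 counts 2, 1 and 1).

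A knockout line can keep a stretch of chromosome around the targeted gene from the strain in which it was made, so genes near Kcnk1 were described apart. Within 10 Mb on chromosome 8, 172 genes other than Kcnk1 were tested, and 2 (1.16%) were called, against 2.56% of genes elsewhere. Both were higher: Slc7a5, an amino acid transporter (0.25 ± 0.05, edgeR adjusted p = 0.00443), and Cmip (0.18 ± 0.05, edgeR adjusted p = 0.0325), an adaptor protein, whose call was lost without any one of CCI KO 2 and 4, CCI WT 2 and 4, or sham KO 1 and 2, and also when sham KO libraries 1 and 2 were both left out (0.12, edgeR adjusted p = 0.243). Within 1 Mb 0 of 20 were called by edgeR, 0 by DESeq2 and 0 by limma-voom, and 3 of them had an unadjusted p below 0.05. Fa2h, one of the myelin lipid genes above, lies on the same chromosome more than 10 Mb from Kcnk1.

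**Figure D5:**
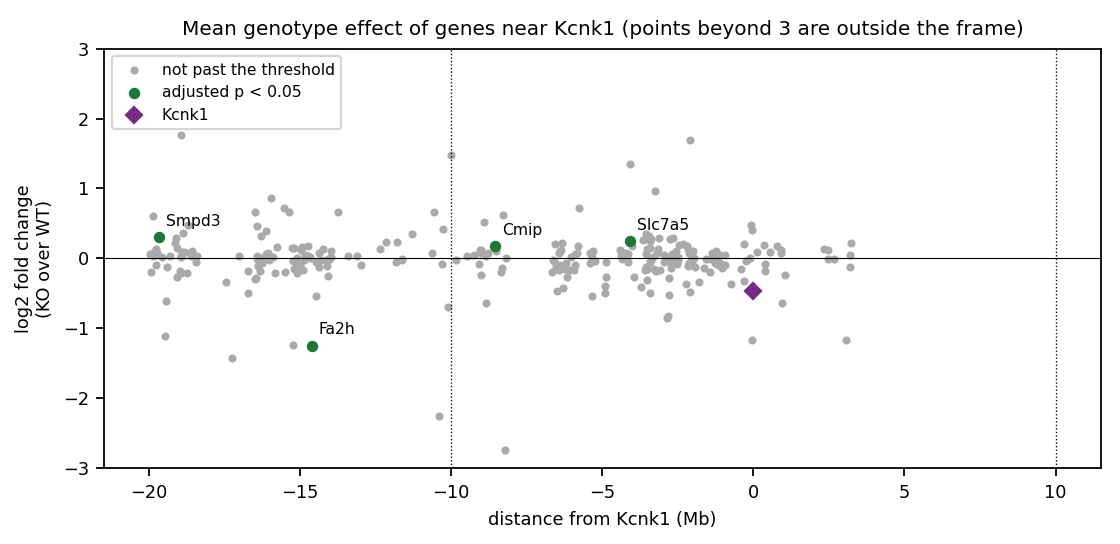
Mean genotype effect (log2 fold change, KO over WT) of tested genes within 20 Mb of Kcnk1 against their distance from it in Mb; the dotted lines mark 10 Mb. 4 genes are called, 2 of them within 10 Mb, and none lies within 1 Mb; Kcnk1 itself is the purple diamond.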

How the data were processed

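Per the labels' protocols, a PicoPure kit gave the RNA of L4 to L6 dorsal root ganglia and a SMART-Seq v4 kit, which keeps no strand, the libraries. Per the submitters' processing notes, base calls were converted with bcl2fastq 2.20.0.422 and reads aligned with STAR 2.7.11a to GRCm39. The authors deposited raw read counts per Ensembl gene, 1 table per library. Of the counter, the sources used here name neither the version nor the strand setting nor the annotation. The tables' summary lines stayed out of totals and tests; 4.03 to 4.55% of reads lay in no gene and 7.63 to 8.17% were ambiguous.

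GENCODE M39 matched 78168 of 78298 identifiers. Scaling factors (trimmed mean of M values) were 0.983 to 1.03. 23972 genes passed edgeR's filterByExpr (minimum count 10, minimum total 15). A mean per group was fitted over all 17 libraries (13 residual degrees of freedom, biological coefficient of variation 0.346) and each contrast tested by quasi-likelihood F test in edgeR, adjusted by Benjamini-Hochberg over all tested genes at 0.05. The code was tested on simulated data. Software was R 4.3.3, edgeR 4.0.16, limma 3.58.1, DESeq2 1.42.0, sva 3.50.0 and Python 3.11.15.

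The 42 gene lists (953 distinct genes, some in several lists) and the groups were chosen with earlier results of these data known. The rule for naming took, among called protein-coding genes with at least 1 CPM in the higher genotype of both treatments and 1 sign in both, the 12 largest rises, the 12 largest falls and the 10 smallest p, up to 4 called members of each list, called genes within 10 Mb of Kcnk1, and Kcnk1, 74 genes in all, of which 3 are not reported here. Other genes named are members of the lists, shown after their values were seen. Exons of 20 of the 71 others overlap another tested gene on the opposite strand (Asb5, Aspa, C1qtnf6, Ccnd2, Cnp, Col15a1, Col4a1, Col4a2, Cyp51, Elovl1, H2-DMa, Hmgcs1, Hoxb5, Kdelr3, Lamb1, Lox, Mag, Napb, Nrgn and Prom2), so their reads cannot be fully told apart. No set test was run. Alternatives were other scaling, filters, tests, 1 surrogate variable, an additive model, each treatment alone, a replicate block and each library left out.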

Additional observations from a re-analysis of the deposited data

Results flagged for a closer look

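In 14 of 213 groups of 4 or 5 libraries among the named genes (6.57%), 1 library lay far from the rest of its group; chance gives about 1 in 20. Of the sham KO libraries, library 1 held 121 CPM of Ednrb (the others 97.8 to 101), 5.18 CPM of P2rx7 (others 9.24 to 9.82) and 32.1 CPM of Fa2h (others 46.0 to 48.1). Library 2 of that group held 50.2 CPM of Cavin3 (others 44.5 to 44.8) and 11.8 CPM of S100a7l2 (others 6.95 to 7.56), library 3 held 2.48 CPM of Asb5 (others 1.41 to 1.49), and library 4 held 1.23 CPM of Rtl4 (others 3.1 to 3.69). Of the CCI WT libraries, library 3 held 2.61 CPM of Col26a1 (others 3.98 to 4.66) and 193 CPM of Drgx (others 163 to 171), library 5 held 83.8 CPM of Col4a2 (others 62.1 to 67.8) and library 2 held 2.62 CPM of Egr3 (others 4.91 to 5.45). Of the sham WT libraries, library 2 held 273 CPM of Cmip (others 237 to 246) and 0.576 CPM of Omd (others 2.52 to 3.95) and library 3 held 94.3 CPM of Kcnk1 (others 128 to 139).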

How the results depend on the processing

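The direction of all 71 named genes was the same under every alternative run. The mean genotype effect called 612 genes (165 higher); other counts were 1027 (380 higher) with DESeq2's test, 1074 (461 higher) with limma-voom and quality weights, 1112 (422 higher, 690 lower) with no low-count filter, 402 (87 higher) with the replicate block, and 404 (89 higher) without sham KO libraries 1 and 2, an alternative chosen after seeing the data. With 1 surrogate variable 261 were higher. With DESeq2's size factors in edgeR 627 were called, 185 of them higher, and with the additive model 603. After CCI alone 164 genes were called, against 405 with DESeq2's test, 407 with the treatment fitted alone, 439 with limma-voom, 452 with no filter and 91 with the replicate block. In sham alone 240 were called, against 629 with DESeq2's test, 69 fitted alone, 702 with no filter, 139 with the replicate block and 37 without sham KO libraries 1 and 2. The interaction called 0, against 21 with DESeq2's test, 4 with limma-voom and 77 with no filter. With 1 library left out the counts ranged from 396 to 995 for the mean effect (103 to 419 higher, 282 to 576 lower), from 18 to 229 after CCI, from 88 to 665 in sham and from 0 to 7 for the interaction; the lowest after CCI was without CCI KO library 3, and both the lowest and highest in sham were without a sham KO library (2 and 4). Kcnk1 ranged from −0.54 to −0.43 with its call kept. Of the 71 named genes, 52 kept their call with each library left out, 54 without sham KO libraries 1 and 2, 55 with the replicate block (lost were Nrgn, Aspa, Lss, Napb, Hmgcs1, Asb5, H2-DMa, Cyp51, Mrgpra3, Glyat, Wfdc3, Omd, Egr3, Drgx, Asns and H2-DMb1), 71 with DESeq2 and 67 with limma-voom. The causes of these shifts were not tested.

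No label says that the replicate numbers pair the samples, and not every pair correlated above 0.1, so the fit without the block is given: over 22 pairs of libraries with the same number the correlation of deviations from the group means was −0.0493 to 0.337 (median 0.0728, 8 over 0.1), and over 85 pairs with other numbers −0.427 to 0.331 (median −0.0195, 13 over 0.1). Of the 6 pairs with number 3, 5 were over 0.1 (0.0977 to 0.337). At 52.5 M counts in the shallowest library, genes named near 1 CPM rest on the fewest reads and carry more counting error than the others.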

Other observations

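The clustered protocadherins, adhesion proteins that give neurons a surface identity, were looked at after their values had been seen. Of 21 tested genes of the beta cluster, Pcdhb5 was higher in KO (0.67 ± 0.13, edgeR adjusted p = 0.00324), at means of 6.89 CPM in CCI KO and 3.90 CPM in CCI WT libraries, and 6.13 CPM in sham KO and 4.27 CPM in sham WT libraries. Pcdhb9 was higher as well (0.44 ± 0.09, edgeR adjusted p = 0.00491), and both genes had no overlap between KO and WT libraries in either treatment. Pcdhb10 was lower (−0.75 ± 0.17, edgeR adjusted p = 0.0160). Of all tested genes, 2.55% were called, and in 0.855% KO and WT libraries did not overlap in either treatment, in the same direction. The median over the beta cluster was 0.033, and edgeR called 0 of 12 tested genes of the alpha cluster and 0 of 20 of the gamma cluster. At an unadjusted edgeR p below 0.05 were 2 alpha and 3 gamma genes, DESeq2 and limma-voom each called 2 alpha genes, and both called 0 gamma genes. Genes of these clusters are close copies, between which reads may be split.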
